A study of Mus musculus with 2 samples.

Results

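Genes that make, package, take up and break down the inhibitory transmitter GABA were measured in the hippocampus of young mice. They were found by gene symbol, taken from the transcript names and joined by gene identifier, and 6 of 6 were present among the 55536 genes of the tables. Gad1 and Gad2 encode the 2 glutamate decarboxylases, Slc32a1 the vesicular GABA transporter, Slc6a11 a GABA transporter of the cell surface, Abat the GABA transaminase and Aldh5a1 the succinic semialdehyde dehydrogenase. The RNA came from 14-day-old female B6CASTF1/J mice, which are first-generation hybrids of the C57BL/6J and CAST/EiJ strains, and the labels name no treatment and no engineered allele. There was 1 group with biological replicates 1 and 2, so no conditions were compared. Both replicates carry 1 donor identifier in the labels but different mouse numbers, and how far the spread between them is that between animals is not stated. Each replicate lists 3 females, whose tissue came as 1 library from 300 ng of RNA, and the labels name a layer of the hippocampus without saying which. Ribosomal RNA was reduced before sequencing and ERCC spike-ins, synthetic RNAs in known amounts, were added. All values below are measurements with no p-value, since 2 libraries of 1 group allow no test.

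GABA is the main inhibitory transmitter of the adult brain. Interneurons make it from glutamate with the enzymes GAD67 (Gad1) and GAD65 (Gad2), which need pyridoxal phosphate, the active form of vitamin B6, and load it into vesicles with the transporter VGAT (Slc32a1). After release, neurons and astrocytes clear GABA through surface transporters, of which Slc6a11 is known from astrocytes. In mitochondria Abat turns GABA into succinic semialdehyde, and Aldh5a1 oxidises that to succinate, which enters the citric acid cycle. In the hippocampus, GABA neurons are a minority among glutamatergic pyramidal and granule cells.

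The libraries held 33465393 (replicate 1) and 32879872 (replicate 2) expected counts. Expected counts are reads assigned to a gene or transcript by an estimate, so they need not be whole. Levels are given in TPM, a scale per length and per library on which genes can be compared. The authors quantified each library in 2 ways, and the tables in RSEM layout are called the first quantification and those in kallisto layout the second. The libraries stood apart in tissue of the ventricle and the brain surface. The 8 choroid plexus genes summed to 1437 TPM in replicate 1 and to 9.86 TPM in replicate 2. Ttr alone held 1375 and 5.62 TPM of those sums. The 7 genes of fibroblasts and meninges summed to 190 and 118 TPM. Markers of glutamatergic neurons were high, with Slc17a7, the vesicular glutamate transporter of forebrain pyramidal cells, at 710 and 672 TPM. Markers of striatum and thalamus were present at lower sums: the 8 striatal genes summed to 49.2 and 41.3 TPM and the 6 thalamic ones to 57.4 and 52.5 TPM. The highest of each list, Ppp1r1b and Prkcd, had 20.2 and 16.7 TPM and 22.1 and 18.4 TPM. Among the lowest, Drd1, a dopamine receptor of striatal projection neurons, had 1.27 and 1.25 TPM, and Gbx2, a thalamic transcription factor, 0.0600 and 0.0200 TPM.

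Gad1 was the most abundant of the 6 genes and Aldh5a1 and Slc32a1 were the least abundant. All 6 were detected, here meaning at least 1 TPM in both libraries. Mean levels over the libraries were 112 ± 5.73 TPM for Gad1, 63.9 ± 1.29 for Abat, 56.0 ± 2.60 for Slc6a11, 36.5 ± 5.16 for Gad2, 30.5 ± 4.16 for Slc32a1 and 30.3 ± 0.177 for Aldh5a1 (SD, n = 2 each). Each was above the median of the 12892 detected nuclear protein-coding genes, which was 14.9 TPM. Gad1 stood at the 94.3 percentile of those genes and Aldh5a1 at the 72.6 percentile. The second quantification gave 113 ± 12.6 TPM for Gad1, 97.5 ± 1.38 for Abat, 86.2 ± 4.26 for Slc6a11, 55.3 ± 12.2 for Gad2, 44.9 ± 6.33 for Slc32a1 and 43.8 ± 0.824 for Aldh5a1 (SD, n = 2 each). TPM values of the last 5 were thus higher there while the order of the 6 was the same. The 2 TPM scales differ, however. With both rescaled so that nuclear protein-coding genes sum to the same total, these 5 were lower in the second quantification. The first then exceeded it by 1.03 to 1.16 times. Neighbours in that order did not overlap in their libraries down to Slc6a11 and Gad2, while Gad2 overlapped Slc32a1, and Slc32a1 overlapped Aldh5a1, in both quantifications.

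**Figure D1:**
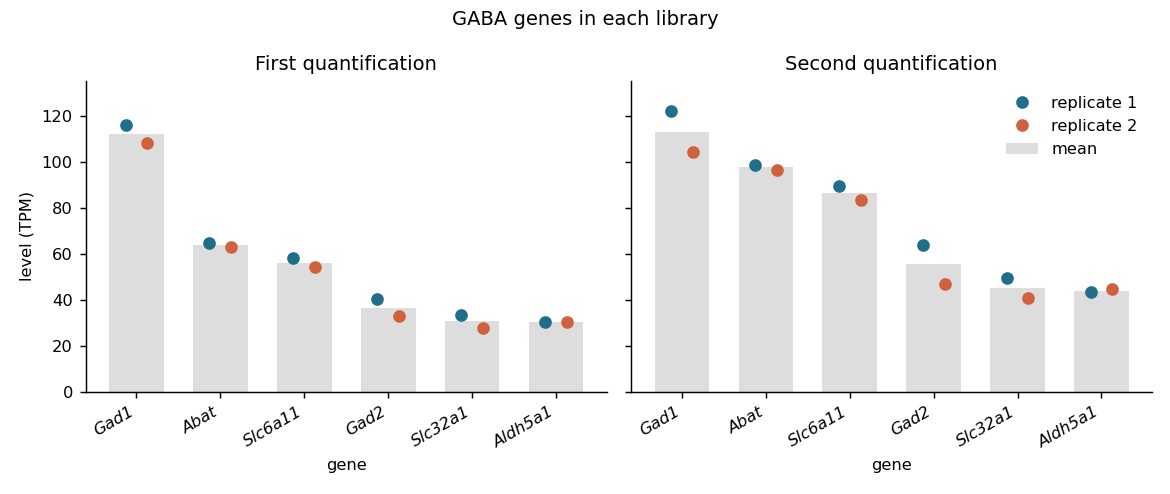
Level in TPM (y axis) of each of the 6 genes (x axis) in the first quantification (left) and the second (right); points are libraries and grey bars the mean of 2 libraries. Gad1 is highest in both panels, and Gad2, Slc32a1 and Aldh5a1 lie between 27.5 and 40.2 TPM in the first quantification.

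Gad1 (ENSMUSG00000070880.10, chr2:70553072-70602014 on the plus strand, mm10) encodes GAD67, the decarboxylase found throughout GABA neurons that supplies most of the brain's GABA. It had 116 TPM in replicate 1 and 108 TPM in replicate 2, from 5906 and 4999 expected counts. The counting intervals of these levels were 113 to 119 and 105 to 111 TPM. The authors' deposited intervals, which also cover the assignment of reads to transcripts, were wider, 106 to 122 and 97.7 to 114 TPM, and overlapped between the libraries. The annotation gives Gad1 8 transcripts, and the gene's total was shared out among them very differently by the 2 quantifications.

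Full-length Gad1-201 has 17 exons, 3355 bases and a coding sequence of 1779 bases. Gad1-206, annotated as a processed transcript without a coding sequence, shares 15 of those exons (2919 bases) and starts at a first exon of its own, 77 bases long (chr2:70566377-70566453). It lacks the first 2 exons of Gad1-201 (434 bases), which hold the start codon, at 70563832, and 79 coding bases. The sequences on both sides of the join to the third exon are shown because they are what tells the full-length from the shortened form. Lower case marks the first 30 bases of the third exon, which both share, (chr2:70567186-70567215) and capitals mark the last 30 bases before it, from chr2:70563881-70563910 in Gad1-201 and chr2:70566424-70566453 in Gad1-206, 5′ to 3′ on the plus strand.
Gad1-201: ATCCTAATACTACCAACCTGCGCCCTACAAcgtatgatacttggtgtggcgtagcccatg
Gad1-206: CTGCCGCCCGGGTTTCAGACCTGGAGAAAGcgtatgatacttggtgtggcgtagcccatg

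In the first quantification, full-length Gad1-201 made up 33.0% of the Gad1 level in replicate 1 and 29.0% in replicate 2. In the second it made up 81.9% and 89.6%. Every other transcript together accounted for 67.0% and 71.0% in the first quantification against 18.1% and 10.4% in the second. The ranges of the 2 quantifications thus did not overlap, and the choice of quantification moved the full-length share far more than the library did.

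Most of that gap lay in Gad1-206 and Gad1-204. Gad1-206 held 38.4 and 32.8 TPM, or 33.0% and 30.3% of the gene, in the first quantification. The second gave it 10.2 TPM (8.38%) in replicate 1 and practically nothing in replicate 2, 484 estimated counts against 0. The first quantification assigned 2856 and 2322 counts to Gad1-201 and 2542 and 2159 to Gad1-206. The posterior SDs in the authors' deposited tables, which describe the uncertainty of the assignment, were 219 and 234 counts for Gad1-201 and 195 and 209 for Gad1-206, while for the Gad1 total they were 0.260 and 0.200. The sum over both transcripts was closer between quantifications than either alone, at 5398 and 4481 counts in the first and 5862 and 4946 in the second. Of the 3325 words of 31 bases in Gad1-201, 436 were not in Gad1-206, and 77 words of Gad1-206 were not in Gad1-201.

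Gad1-204 is a fragment of 398 bases with 127 coding bases, whose 3′ end is annotated as not found. Its own first exon of 52 bases lies 8970 bases upstream of the start of Gad1-201. It received 26.9% and 32.4% of the Gad1 level in the first quantification (31.3 and 35.0 TPM), but only 214 and 238 of the counts. The second quantification gave it 0 counts in both libraries. The first used an effective length, the number of start positions by which counts are divided, of 299 bases for this fragment and the second 103 bases. Part of the Gad1 level in TPM therefore rested on few reads over a short length: without Gad1-204 the gene had 85.0 and 73.1 TPM in the first quantification.

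That fragment also bears on how high Gad1 stands. With both rescaled so that nuclear protein-coding genes sum to the same total, the first quantification exceeded the second by 1.57 and 1.71 times for Gad1 in replicates 1 and 2. For Gad2, Slc32a1, Slc6a11, Abat and Aldh5a1 the factor lay between 1.03 and 1.16. Without Gad1-204 the factor for Gad1 was 1.15 and 1.16.

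**Figure D2:**
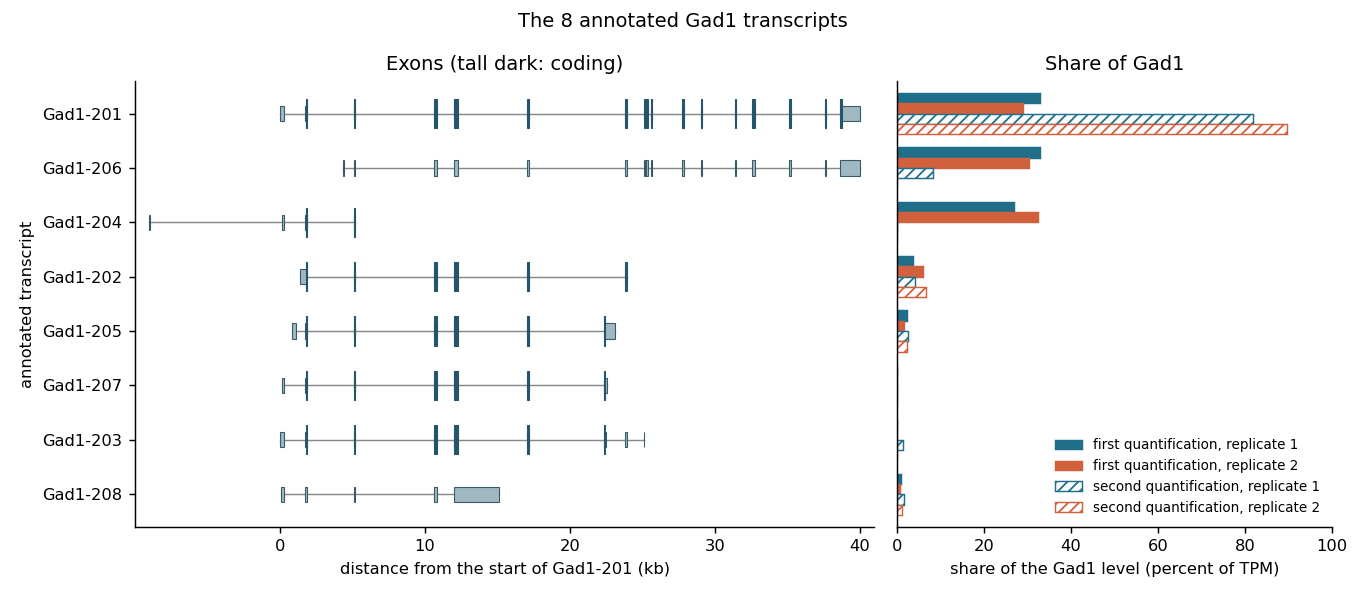
Left, exons of the 8 annotated Gad1 transcripts against distance in kb from the start of Gad1-201, with coding parts tall and dark. Right, share of the Gad1 level in percent of TPM, filled bars for the first and hatched bars for the second quantification, coloured by library; Gad1-201 holds 29.0 to 33.0% in the first and 81.9 to 89.6% in the second.

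A truncated form of Gad1 is known from embryonic brain, where an alternative exon with an early stop codon gives a shortened protein without enzyme activity. An alternative exon with an early stop is annotated after the sixth exon, starting at chr2:70584420, in 3 transcripts, Gad1-203, Gad1-205 and Gad1-207. Their coding sequence of 669 bases is 37.6% of the full-length one. The join is shown from the last 30 bases of the sixth exon (chr2:70579172-70579201, lower case), and capitals mark the following exon, chr2:70585834-70585870 in Gad1-201 and chr2:70584420-70584456 in Gad1-205, where the last 3 capitals are the stop codon.
Gad1-201: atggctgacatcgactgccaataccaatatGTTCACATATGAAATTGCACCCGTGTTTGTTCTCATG
Gad1-205: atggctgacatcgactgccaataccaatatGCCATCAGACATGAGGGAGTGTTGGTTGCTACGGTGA

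Transcripts with this exon were a small part of Gad1 in both quantifications. Together they held 2.40% and 1.73% of its level in the first and 3.81% and 2.38% in the second. Gad1-205 accounted for all of the first value, from 102 and 68 expected counts. Gad1-207 had 0 counts in both quantifications, and none of its words was its own, so reads could not single it out. Gad1-203, annotated for nonsense-mediated decay, had 0 counts except for 24 in replicate 1 of the second quantification. Gad1-202, a coding fragment of 1138 bases whose 3′ end is not found, had 3.76% and 5.88% in the first quantification and 4.15% and 6.77% in the second. Gad1-208, which retains an intron, had 0.938% and 0.712% in the first. On the early-stop exon and on Gad1-202 the shares of TPM thus lay closer between the quantifications than on Gad1-206 and Gad1-204. Counts of Gad1-202 were lower in the second, 72 and 98 in replicates 1 and 2 against 104 and 150 in the first.

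Other loci took little of the reads at Gad1. Gad1os, an antisense RNA whose gene runs from chr2:70489940 to 70563357 on the minus strand, had 3 and 2 expected counts and no exonic base in common with Gad1. The pseudogene Gad1-ps on chromosome 10 shared 289 words with Gad1 and had 8 and 4 counts. No word of 31 bases was shared between any pair of the 6 genes, the 2 decarboxylases included.

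Gad2 (ENSMUSG00000026787.3, chr2:22622205-22693874, plus strand) encodes GAD65, the decarboxylase that associates with vesicle membranes in axon terminals. Its level was 40.2 TPM in replicate 1 and 32.9 TPM in replicate 2, from 4690 and 3733 counts. Coding transcript Gad2-201 made up 89.2% and 87.0% of it, and 81.2% and 89.9% in the second quantification. The processed transcript Gad2-202, of 721 bases, held the rest, 4.32 and 4.26 TPM from 61 and 60 counts.

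The balance of the decarboxylases depended on which Gad1 transcripts were counted. Over all transcripts, Gad1 exceeded Gad2 by 2.89 and 3.29 times in TPM of the first quantification, by 1.91 and 2.23 times in the second, and by 1.26 and 1.34 times in expected counts, which are not per length. Full-length Gad1-201 alone stood at 0.955 times Gad2 in the first quantification (mean over the libraries), close to parity, and at 1.78 times Gad2 in the second. Gad1 in total was above Gad2 in each library under each of these measures, while the place of the full-length form depended on the measure. In the first quantification it was 0.615 times Gad2 in expected counts, and 1.08 times the coding transcript Gad2-201 alone in TPM.

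Slc32a1 (ENSMUSG00000037771.11, chr2:158610767-158615748, plus strand) encodes VGAT, the transporter that loads GABA and glycine into vesicles. It had 33.4 TPM in replicate 1 and 27.5 TPM in replicate 2, from 2061 and 1688 counts, and has a single annotated transcript. Its level was 0.831 and 0.837 times that of Gad2 in the first quantification and 0.774 and 0.867 times in the second. RNA of Slc32a1 thus stood below that of all Gad2 transcripts together in each. The gap was smaller against coding Gad2-201 alone, which had 35.9 and 28.6 TPM in the first quantification. In the second, Gad2-201 had 51.8 and 42.0 TPM against 49.4 and 40.5 for Slc32a1. Against Slc17a7, its counterpart in glutamatergic neurons, Slc32a1 stood at 0.0470 and 0.0410 times, and at 0.0471 and 0.0406 times in the second quantification. The antisense gene Gm14205 overlaps it and shares 669 of its 2767 words on either strand. That gene had 3 and 0 counts, and no source used here says whether reads were counted by strand.

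Slc6a11 (ENSMUSG00000030307.8, chr6:114131241-114249952, plus strand) encodes the surface transporter known from astrocytes. It had 57.9 and 54.2 TPM in replicates 1 and 2, from 5286 and 4934 counts. Its coding transcript held 98.8% and 99.1% of the level, the remainder being a retained intron. In the second quantification it had 89.2 and 83.1 TPM. Slc6a13, a transporter known from the meninges and the blood-brain barrier, had 5.56 and 4.55 TPM, and the betaine and GABA transporter Slc6a12 had 1.08 and 1.13 TPM from 31 and 38 counts. Slc6a11 thus exceeded Slc6a13 by 10.4 and 11.9 times, and Slc6a12 was lower still in both libraries.

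Abat (ENSMUSG00000057880.12, chr16:8513429-8621568, plus strand) encodes the GABA transaminase, the mitochondrial enzyme blocked by the antiepileptic drug vigabatrin. Its levels were 64.8 TPM in replicate 1 and 62.9 TPM in replicate 2, from 6537 and 6290 counts, the highest counts of the 6 genes. Of its 7 transcripts, full-length Abat-201 held 95.7% and 94.8%.

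Aldh5a1 (ENSMUSG00000035936.6, chr13:24907579-24937661, minus strand) encodes succinic semialdehyde dehydrogenase, whose loss in people causes a disorder with raised GABA and gamma-hydroxybutyrate. It had 30.1 and 30.4 TPM from 3824 and 3834 counts of 1 annotated transcript. The transaminase exceeded the dehydrogenase by 2.15 and 2.07 times in TPM, and by 2.28 and 2.18 times in the second quantification. Aldh5a1 overlaps the antisense gene 4932702P03Rik, with 2 and 5 counts, and 9330162012Rik, with 93 and 114 counts. The second quantification assigned 37 and 32 counts to 4932702P03Rik. Counts on these genes were small beside those of Aldh5a1.

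The genes around the pathway were expressed over a wide range. In glutamate and glutamine supply, 11 of 11 genes were detected. Slc1a2, the main glutamate transporter of astrocytes, had 978 and 1181 TPM, and Glul, which makes glutamine from glutamate, had 668 and 762 TPM. The second astrocytic glutamate transporter, Slc1a3, had 191 and 238 TPM, and glutamate dehydrogenase, Glud1, 158 and 174 TPM. The lowest were Gls2, the less abundant glutaminase, at 6.15 and 7.17 TPM and the glutamine transporter Slc38a5 at 4.79 and 3.82 TPM. Levels of these 11 genes spanned those of all 6 GABA genes.

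Cofactor enzymes and partners of the decarboxylases were also all detected, 5 of 5. Hspa8 and Dnajc5, chaperones of the synaptic vesicle known to associate with GAD65, had 1022 and 759 TPM and 119 and 118 TPM. Pdxp, a phosphatase that removes pyridoxal phosphate, had 61.3 and 63.4 TPM, and Zdhhc17, the enzyme that attaches palmitate to GAD65, 36.7 and 30.4 TPM. The kinase that makes pyridoxal phosphate, Pdxk, had 31.8 and 31.2 TPM. Levels of Zdhhc17 and Pdxk were near those of Gad2.

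Among the relatives of the decarboxylases, Csad, which makes hypotaurine, had 18.4 and 15.5 TPM. Gadl1, a decarboxylase of aspartate, had 3 counts in each library, at the floor of 3 counts, while the second quantification gave it 14 and 17. The route from putrescine, by which some astrocytes make GABA, had 4 of 6 genes detected. Odc1, which makes putrescine, had 32.8 and 42.3 TPM, Aldh1a1 24.1 and 29.9, Aldh9a1 9.75 and 7.33, and the monoamine oxidase Maob 4.80 and 5.92. The diamine oxidase gene Aoc1 had 0 counts in both libraries, where the limit of 3 counts is 0.131 and 0.132 TPM over an effective length of 1 kb, and Dao had 1 and 3 counts. The list around the steps from succinic semialdehyde on also holds citric acid cycle steps that the GABA route bypasses, and 7 of 7 genes were detected. Succinate dehydrogenase subunit Sdha had 123 and 113 TPM and Ogdh, of a bypassed step, 109 and 104 TPM. Sucla2 and Suclg1, subunits of succinyl-CoA ligase, which is bypassed too, had 66.3 and 63.5 TPM and 61.8 and 55.5 TPM. Adhfe1, which returns gamma-hydroxybutyrate to succinic semialdehyde, had 7.93 and 8.44 TPM, and the ligase subunit Suclg2 7.43 and 7.89 TPM, both below Aldh5a1.

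**Figure D3:**
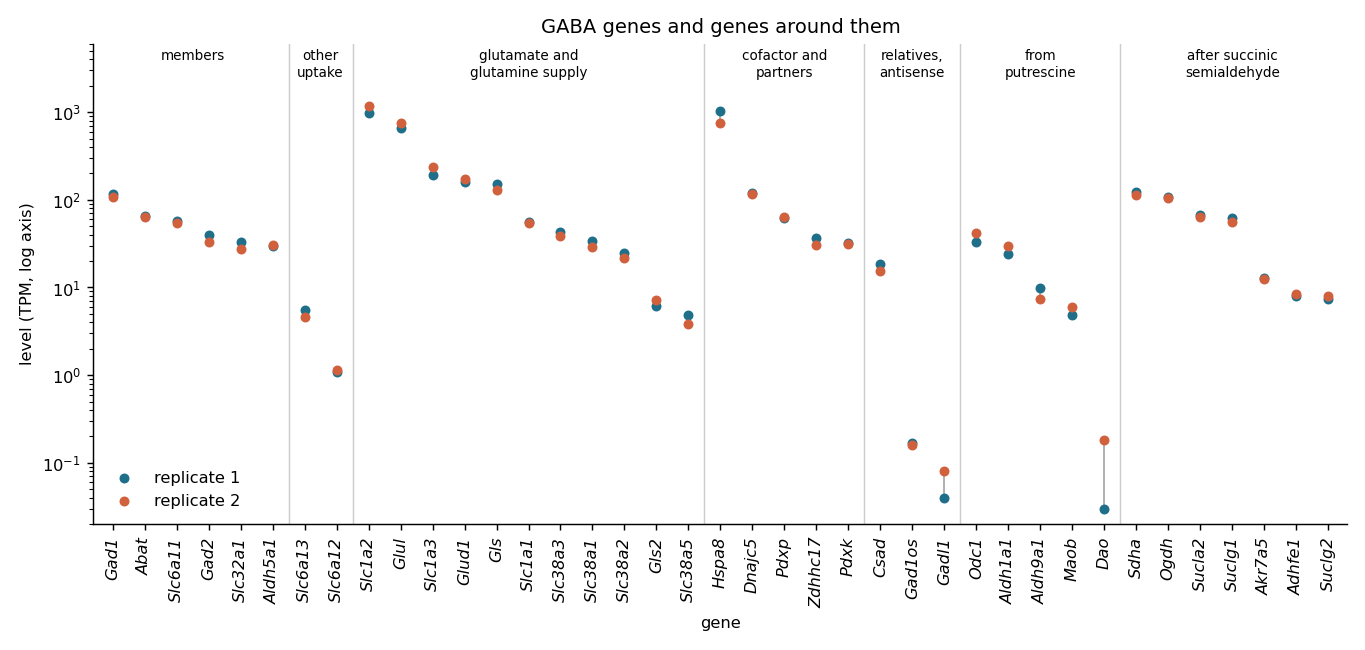
Level in TPM on a log axis (y axis) of the 6 GABA genes and of the genes of 6 lists around them (x axis), 1 point per library with a grey line joining the libraries; Aoc1, at 0 counts, cannot be drawn. Most genes differ little between libraries on this scale, and the GABA genes lie between 27.5 and 116 TPM.

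With counts scaled to compare the libraries, the 3 genes of GABA synthesis and packaging were lower in replicate 2 and the 3 of uptake and breakdown were not. Ratios of replicate 2 to replicate 1 were taken from expected counts with TMM scaling, which sets library sizes so that most genes do not differ. Gad2 had the lowest ratio, 0.859 (counting interval 0.823 to 0.897, log2 -0.22). Slc32a1 had 0.884 (0.829 to 0.944, log2 -0.18) and Gad1 0.914 (0.880 to 0.949, log2 -0.13). These 3 genes were lower in replicate 2 under each of the scalings tried. In deposited TPM, however, Gad1 at log2 -0.10 lay near the median of all genes tested, -0.09. Slc6a11 had 1.01 (0.969 to 1.05) and Abat 1.04 (1.00 to 1.08), and for both the direction changed with the scaling. Aldh5a1 had 1.08 (1.03 to 1.13, log2 0.11) and was higher in replicate 2 under each scaling, though in deposited TPM only at log2 0.01. In bulk RNA, fewer GABA neurons in a sample and less RNA of these genes per neuron cannot be told apart.

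None of these differences was large against the rest of the genes. Of the 6 genes, 0 were past 1.2-fold in either direction, against 9.51% of 14715 genes higher in replicate 2 and 11.6% lower. Scaled by the spike-ins 1 of the 6 was past it, Gad2, and in deposited TPM 2 were, Gad2 and Slc32a1, all lower in replicate 2. Under those scalings 16.2% and 21.8% of all genes tested were past it in that direction. The median log2 ratio was -0.06 over the 6 genes and 0.01 over all genes tested. Of the genes tested, 14.8% had a ratio at or below that of Gad2, 18.3% at or below that of Slc32a1, 23.9% at or below that of Gad1 and 73.1% at or below that of Aldh5a1. Counting error alone is covered by the intervals, so they do not say whether the mice differed.

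Marker genes of cell types moved between the libraries too. Among all 14715 genes tested, 6991 were below 0 on the log2 scale and 7724 above. Past 1.2-fold were 9.51% higher and 11.6% lower in replicate 2. Of 18 GABA neuron markers, 13 were below 0 on the log2 scale, with a median of -0.11, and 5 were past 1.2-fold lower and 0 past it higher. The other 5 of the 18 lay between 0.01 and 0.14. Those past 1.2-fold lower included the 2 least abundant of the 18, Sp9 at 2.07 and 1.47 TPM and Sncg at 1.92 and 1.23 TPM. Sncg had 33 and 21 counts and a counting interval of its ratio of 0.378 to 1.22. In the second quantification the log2 ratio of Sncg was -0.08, not past 1.2-fold. Of the most abundant, Sst, the peptide of a major interneuron class, had 171 and 127 TPM (log2 ratio -0.33), and Cck, a peptide of both interneurons and pyramidal cells, 243 and 228 TPM with a log2 ratio of -0.00 after scaling. Npy had 45.2 and 39.3 TPM (-0.10) and Calb2 41.3 and 35.6 TPM (-0.11). In deposited TPM, without that scaling, the 18 summed to 643 TPM in replicate 1 and 556 in replicate 2. Sst and Cck were the largest parts of that sum. The median log2 ratio of all genes tested in deposited TPM was -0.09. Astrocyte markers had a median of 0.29, with 7 of 8 above 0 and 4 past 1.2-fold higher, and glutamatergic markers a median of 0.20, with 3 of 7 past it. The astrocytic transporter gene Slc6a11, at 0.01, stood below that astrocyte median but within the range of the 8 markers, -0.07 to 0.44. Fibroblast and meninges markers were lower in replicate 2 for 7 of 7 (median -0.56) and choroid plexus markers for 8 of 8 (median -4.88). In replicate 2 the choroid plexus markers Folr1 and Kcnj13 had 5 and 3 counts, against 235 and 169 in replicate 1. The part of these tissue differences in the GABA genes' ratios was not tested.

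**Figure D4:**
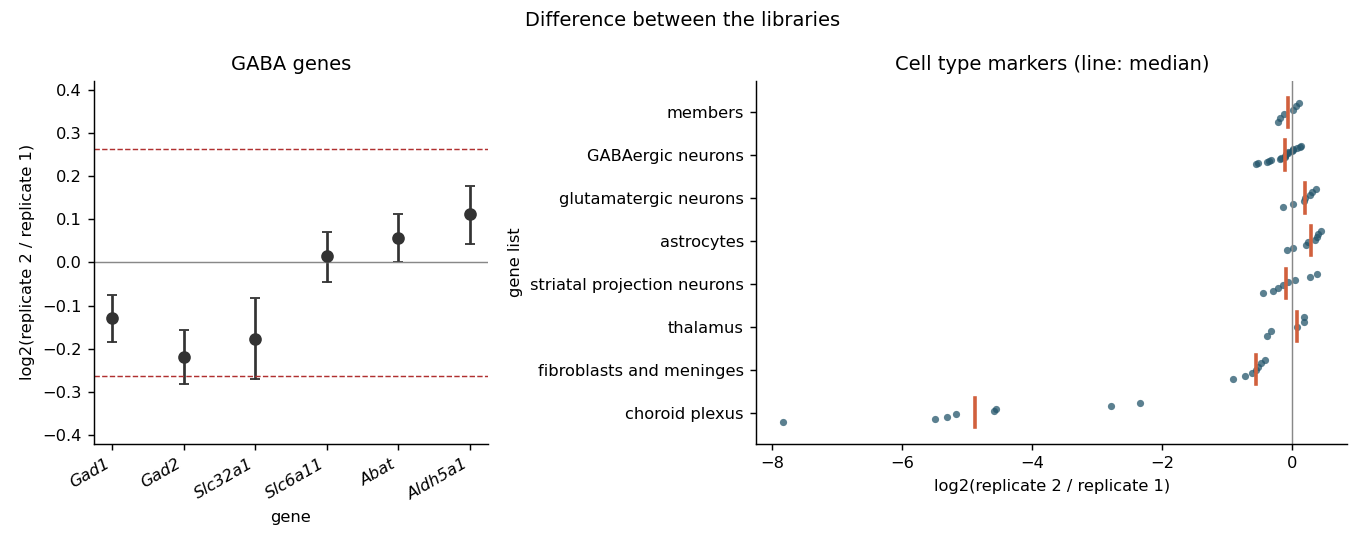
Left, log2 ratio of replicate 2 to replicate 1 (y axis) for the 6 GABA genes, with bars for the counting interval and dashed lines at 1.2-fold. Right, the same ratio (x axis) for the genes of each marker list, points being genes and the vertical line their median; choroid plexus genes lie far to the left, with a median of -4.88, and the 6 genes between -0.22 and 0.11.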

How the data were processed

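Total RNA of 2 hippocampus libraries was sequenced, per the labels. The authors deposited gene and transcript tables in RSEM layout with expected counts, FPKM and TPM, per the file headers, plus the percent of the gene's TPM that each transcript holds. These tables also hold posterior SDs and interval bounds, which the authors' estimation gives as scores of assignment uncertainty, per the file headers. The authors also deposited transcript tables in kallisto layout whose columns, per the file headers, are TPM and estimated counts. Both use mm10 and GENCODE M21 per the notes beside the files, and no source used here gives tool versions or strand use. The labels do not say whether the females listed for a library were pooled before or after extraction.

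Entries that are no genes (spike-ins included) took 0.430% and 0.423% of counts and stayed out of library sizes. Ratios used TMM scaling (edgeR 4.0.16 in R 4.3.3; DESeq2 1.42.0 size factors as an alternative) with 0.5 added as a prior count, where mean TPM reached 1 and summed counts 50, with exact binomial 95% intervals, which cover counting error only. The ratio steps were tested on simulated data with counting error only and 2-fold changes. That test does not cover differences as small as those of the 6 genes. A transcript was full-length where its coding sequence reached 0.95 of the gene's longest. Words of 31 bases came from the annotated transcripts, and sequences and coordinates from the same annotation. The 6 genes and the lists were chosen with earlier results of these data known. Named from a list were at most its 4 highest and 2 lowest genes by TPM, genes overlapping the 6, or genes past 2-fold; transcripts were named from 5% of their gene on, except that all 8 of Gad1 are given. Some genes of the lists are not reported here. Dlx6os1 matched 2 gene entries and was left out. No genes were sought for a likeness in pattern, since 2 libraries give none. Values were computed with Python 3.11.15, numpy 2.4.6, pandas 2.3.3 and scipy 1.17.1.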

Additional observations from a re-analysis of the deposited data

How the results depend on the processing

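Gad1 over Gad2, 3.09 in TPM of the first quantification, became 2.07 in the second, 1.30 in expected counts and 2.17 without Gad1-204, an alternative chosen after seeing the data. It lay between 2.89 and 3.29 with either library left out. Full-length Gad1 over Gad2, 0.955, passed 1 in the second quantification (1.78), with Gad1-206 added (1.93) and against Gad2-201 alone (1.08), the last 2 chosen after seeing the data. It was 0.615 in expected counts and 0.954 to 0.955 with a library left out. The full-length share of Gad1, 29.0% and 33.0% of TPM in the libraries, was 85.8% in the second quantification, 47.4% of expected counts and 91.4% of the second quantification's counts (chosen after seeing the data), and 29.0% to 33.0% with a library left out. The number of the 6 genes past 1.2-fold was 0, but 1 with scaling by spike-ins and 2 with deposited TPM ratios, where 16.2% and 21.8% of all genes were past it lower. Of 18 alternative values of the 6 levels, 17 moved by more than the spread of the libraries. These alternatives were on other scales, either TPM of the second quantification or levels rescaled over nuclear protein-coding genes. Such moves are largely a change of unit and say little about how stable the levels are. Deposited TPM moved the median log2 ratio of all genes from 0.01 to -0.09, and relative to that median Gad1 was at -0.01, against -0.14 with TMM scaling. Slc6a11 was at -0.05 and Abat at -0.01 with scaling by spike-ins, and at -0.09 and -0.04 with deposited TPM, against 0.01 and 0.06. The cause was not tested for any of these. Transcript shares of Slc6a11-201 and Abat-201 moved by less than the spread of the libraries. The share of Gad2-201 moved by more than that spread, from 88.1% to 85.6% in the second quantification. No paired analysis was possible because there is 1 group. With 2 libraries, no spread of a ratio is better known than the SDs given, and levels of genes near 3 counts are not resolved.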
